A study of Homo sapiens with 5 samples.

Results

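The 10 genes described here encode surface proteins with which a cell presents itself to the immune system, and they were chosen by name: the checkpoint and phagocytosis ligands CD274, CD276, CD47 and PVR, the NKG2D ligands MICA, MICB and ULBP2, and the complement regulators CD46, CD55 and CD59. They are 10 of the 33538 genes in the deposited count tables. KYSE30 is an established human esophageal squamous cell carcinoma (ESCC) line, and the KYSE30-Luc-GFP cells of this study carry luciferase and green fluorescent protein. Parental cells from culture were compared with GFP-positive cells sorted from lungs of NOD SCID mice that had received them through the tail vein; the lungs were taken after 6 h and 48 h for the early stage and after 2 months and 4 months for the late stage. The mice were 4 to 5 weeks old when injected, and cells of 3, 16, 6 and 1 mice were pooled for these timepoints in that order. All libraries are of the same labelled line, and every lung library passed through tissue digestion, depletion of lung cells and sorting. NOD SCID mice have no functional T or B cells, so the human tumor cells met what remained of innate defence. Each timepoint is 1 library without a replicate, no test was possible between timepoints, and the timepoint cannot be told apart from the library, the mice or the handling.

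CD274 (PD-L1) engages PD-1 on T cells, CD47 signals to SIRP alpha on phagocytes, and PVR is bound by TIGIT and CD226 on T and natural killer (NK) cells. NKG2D is an activating receptor of NK cells, and its ligands appear on stressed or transformed cells. Complement is held in check on the cell surface by CD46, which helps to cleave C3b and C4b, by CD55, which speeds the decay of the C3 and C5 convertases, and by CD59, which blocks the membrane attack complex. Tumor cells in blood and lung capillaries can in general meet such defences, but functional T cells are missing in NOD SCID mice. Whether NK cells and complement work fully in this strain, and which defences acted on these cells, was not tested here.

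Levels are given as CPM, the counts of a gene per 1000000 unique molecular identifiers (UMIs) summed over all kept cells, where each UMI stands for 1 captured RNA molecule. Values have 95% intervals, exact Poisson for levels, exact conditional binomial for ratios and Clopper-Pearson for shares of cells, and all of them cover counting error only. After the filter of the study the libraries kept, in order of time from the parental culture on, 9059, 1957, 1149, 3322 and 4499 cells, with 32540023 to 204864006 UMIs in a library and median UMIs of 23014, 12979, 39076, 21864.5 and 27559 per cell in that order. Among the kept cells 198 barcode sequences occurred in 2 or more libraries. Cells with at least 1 UMI in each of the 2 groups of signature genes that the study used for metastasis-initiating cells, such as S100A14 and RHOD in one group and CD44 in the other, are called signature-positive. Their shares were 14.5%, 98.2%, 95.7%, 81.8% and 99.2% in order of time, and no gene of the set defines them. The 12 squamous and epithelial markers summed to 158 CPM in the parental library, 3889 CPM at 6 h, 3199 CPM at 48 h, 8904 CPM at 2 months and 19060 CPM at 4 months. They summed to only 84.2 CPM in parental signature-negative cells, whose squamous character the counts hardly show. The 35 signature-negative cells at 6 h held LYZ, a leukocyte gene, at 3931 CPM, out of 3952 CPM summed over 8 leukocyte markers. Of these markers 4 had no UMI, and the squamous and epithelial markers summed to 1278 CPM in the same cells. The 50 at 48 h held COL1A1, a fibroblast gene, at 3385 CPM, with squamous and epithelial markers at 219 CPM. Both values pool the UMIs of few cells, with medians of 1743 and 1837 UMIs, so a small number of cells can carry them. At 6 h LYZ was found in 2 of 1834 cells after each was thinned at random to 3000 UMIs. How many cells of either class held these genes was not counted.

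The dominant pattern was a high level in the early lung libraries. At 6 h, 8 of the 9 genes that reached 5 CPM in either library were at least 2-fold higher than in the parental library, while 17.2% of the 10852 genes tested were 2-fold higher and 27.8% were 2-fold lower. The median log2 ratio, with 1 CPM added, was 1.48 over the 9 genes and -0.29 over all genes. At 48 h against 6 h none of 9 was past 2-fold in either direction, beside 3.24% of all genes higher and 1.42% lower. MICB came closest, with a log2 ratio of 0.97 with 1 CPM added and a ratio of 2.05 (1.81 to 2.31) without. At 2 months against 48 h, 6 of 9 were at least 2-fold lower and none higher, beside 13% of all genes lower and 12.2% higher, with medians of -1.56 over the 9 genes and -0.05 over all genes. At 4 months against 2 months none of the 8 tested genes was past 2-fold, beside 3.03% of all genes higher and 9.38% lower. CD274 never reached 5 CPM and stands outside these counts, as does MICB at 4 months against 2 months. MICB passed the limit through 1 library only, 6 h (11.03 CPM against 3.33 CPM) or 48 h (22.6 CPM against 2.93 CPM at 2 months). Such a gene can be called in 1 direction only, so MICB adds no weight to the direction of either count.

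**Figure D1:**
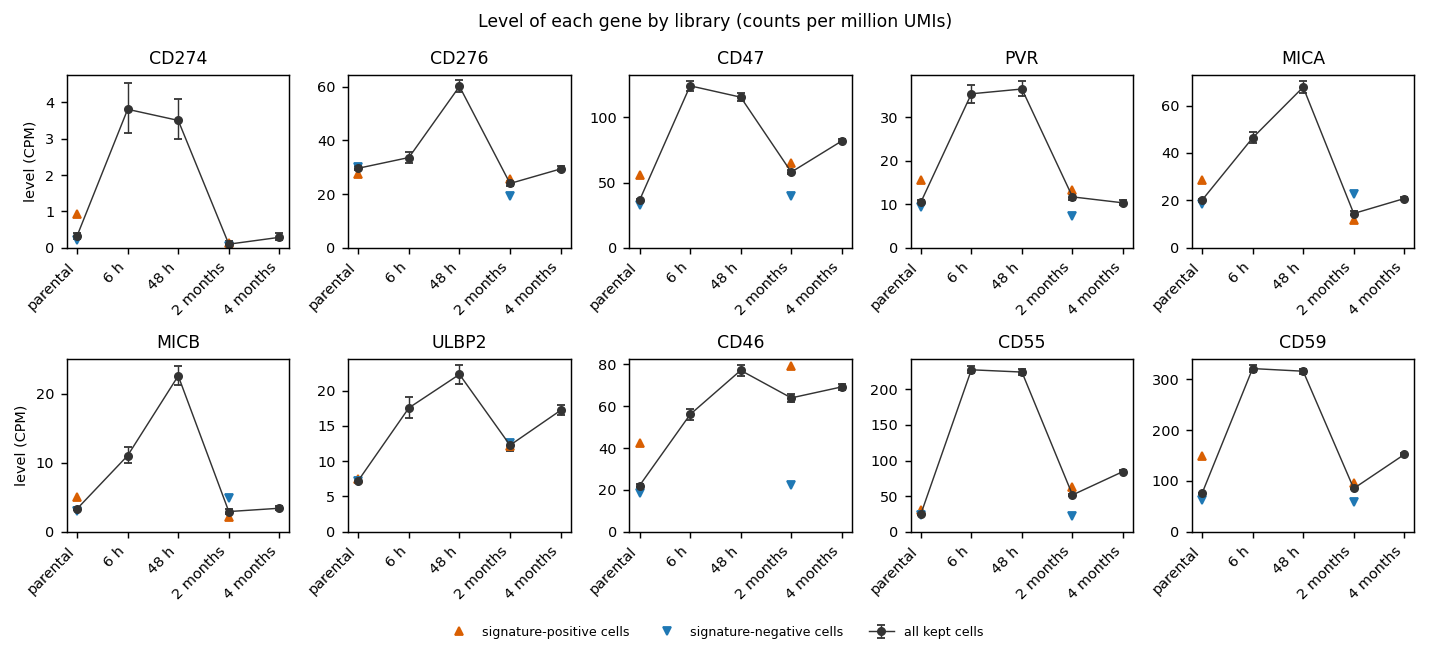
Level of each of the 10 genes in the 5 libraries, in CPM on a linear axis from 0, with libraries at equal spacing; circles are all kept cells with exact 95% Poisson intervals, and triangles are signature-positive and signature-negative cells of the parental and 2 month libraries. CD55 stood at 227 CPM at 6 h and 224 CPM at 48 h between 24.6 CPM in parental cells and 51.7 CPM at 2 months, while CD46 stayed at 64.0 CPM at 2 months.

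Since most parental cells lacked the signature and nearly all early lung cells carried it, 6 h cells were also set against parental signature-positive cells. There 5 of 9 genes were at least 2-fold higher, namely CD47, PVR, ULBP2, CD55 and CD59, and none was 2-fold lower, beside 10.6% of all genes higher and 12.3% lower. PVR (with 5 CPM added, or with equal weight of cells), ULBP2 (with 5 CPM added) and CD59 (scaled without mitochondrial and ribosomal protein genes) fell inside 2-fold under the settings named. MICB lay just inside 2-fold with a log2 ratio of 0.9965, and CD46, MICA and CD276 lay lower at 0.40, 0.68 and 0.27. The median over the 9 genes was 1.11, against -0.05 over all genes. For CD46 the level was 42.4 CPM in parental signature-positive cells and 56.1 CPM at 6 h, whereas for CD55 it was 31.2 CPM and 227 CPM.

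The complement regulators held the largest ratio at 6 h among the 9 tested genes, that of CD55. CD55 (1:207321519-207386804, plus strand, GRCh38) lies near CD46 (1:207752037-207795513, plus strand) in the cluster of complement regulator genes, and CD59 (11:33703010-33736479, minus strand) lies elsewhere. All members are annotated as protein coding in GENCODE 44, and their coordinates here are those of the whole gene, exons and introns together. The level of CD55 was 24.6 CPM (23.9 to 25.3) in parental cells, 227 CPM (222 to 232.5) at 6 h, 224 CPM (220 to 228) at 48 h, 51.7 CPM (50.2 to 53.3) at 2 months and 84.6 CPM (83.0 to 86.2) at 4 months. The 2 early lung libraries were the high ones, their intervals overlapped each other, and the other libraries were apart from them and from one another. At 6 h the level was 9.25-fold (8.92 to 9.58) that of all parental cells and 7.28-fold (6.82 to 7.79) that of parental signature-positive cells. From 48 h to 2 months it was 4.33-fold (4.18 to 4.49) lower, and at 4 months it was still 2.71-fold (2.54 to 2.90) above parental signature-positive cells.

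CD59 is anchored in the membrane by a lipid and acts at the last step of complement. Its level was 75.4 CPM in parental cells, 321 CPM at 6 h, 316 CPM at 48 h, 85.3 CPM at 2 months and 152 CPM at 4 months. It followed CD55 in shape, with 6 h and 48 h overlapping and 2 months close above the parental library. Parental signature-positive cells already held 149 CPM of CD59 against 62.1 CPM in signature-negative cells, a 2.39-fold (2.31 to 2.48) difference. The 6 h level was 2.16-fold (2.09 to 2.24) that of parental signature-positive cells, and the ratio of 4 months to the same cells was 1.02 (0.992 to 1.06). Of the 90-base windows in the last 500 bases of its coding transcripts, 24.5% also occur in an overlapping gene, listed in the files as AL049629.2, so that part of the CD59 molecules may not have been counted.

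CD46 behaved unlike CD55 and CD59. The level was 22.1 CPM in the parental library, 56.1 CPM at 6 h, 77.2 CPM at 48 h, 64.0 CPM at 2 months and 69.3 CPM at 4 months. All 4 lung libraries were above the parental one with no overlap of intervals, and the late libraries lay between the early ones. At 2 months the level was 1.21-fold (1.16 to 1.26) lower than at 48 h, whereas CD55 and CD59 were 4.33-fold and 3.70-fold lower. The direction of that small CD46 difference depended on which cells were taken: with signature-positive lung cells alone the log2 ratio was 0.03 in place of -0.27. At 4 months CD46 was 1.63-fold (1.54 to 1.73) above parental signature-positive cells.

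The NKG2D ligands of the set were highest at 48 h. MICA (6:31399784-31415315, plus strand) and MICB (6:31494881-31511124, plus strand) are neighbours in the major histocompatibility complex on the short arm of chromosome 6, and ULBP2 (6:149942014-149949235, plus strand) is on its long arm. MICA and MICB are near copies of each other, but none of the 90-base windows in the last 500 bases of the coding transcripts of MICA, MICB or ULBP2 occurs in another gene of GENCODE 44. MICA is highly variable between people, and the alleles of KYSE30 were not examined. MICA was at 20.1 CPM in parental cells, 46.3 CPM at 6 h, 67.7 CPM at 48 h, 14.5 CPM at 2 months and 20.8 CPM at 4 months. It was lowest at 2 months, with the parental and 4 month libraries overlapping. From 48 h to 2 months it was 4.69-fold (4.38 to 5.02) lower.

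MICB showed the same order at lower counts. Its level was 3.33 CPM in the parental library, 11.03 CPM at 6 h, 22.6 CPM at 48 h, 2.93 CPM at 2 months and 3.41 CPM at 4 months. The intervals of the 3 low libraries overlapped between neighbours, and the 2 early ones were apart from each other and from the rest. The drop from 48 h to 2 months was 7.70-fold (6.69 to 8.91), the largest among the 9 genes tested in that comparison. At 4 months both MICA and MICB were below parental signature-positive cells, with ratios of 0.728 (0.674 to 0.786) and 0.678 (0.564 to 0.819).

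The promoters of MICA and MICB, the 2 genes that were lower by the most among those tested, are shown because they carry the same 8 letters at nearly the same place. They are the 250 bases before the RefSeq start on GRCh38.p14, chr6:31403345-31403594 and chr6:31497895-31498144, both on the plus strand and written 5′ to 3′, with the core of a heat shock element, GAANNTTC, in capitals.
MICA: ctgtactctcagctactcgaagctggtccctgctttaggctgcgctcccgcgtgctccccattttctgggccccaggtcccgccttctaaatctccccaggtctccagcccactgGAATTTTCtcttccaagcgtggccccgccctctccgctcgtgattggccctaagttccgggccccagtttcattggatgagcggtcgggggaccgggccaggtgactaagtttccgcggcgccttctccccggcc
MICB: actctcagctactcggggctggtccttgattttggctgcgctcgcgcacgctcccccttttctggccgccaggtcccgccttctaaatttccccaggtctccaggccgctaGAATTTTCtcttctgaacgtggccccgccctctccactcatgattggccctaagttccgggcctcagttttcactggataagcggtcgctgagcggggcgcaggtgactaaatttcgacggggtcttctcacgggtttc
The 8 letters start 135 bases before the start of MICA and 139 bases before that of MICB. GAANNTTC, which reads the same on both strands, is in 5.78% of all 35116 promoter entries.

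ULBP2, a lipid-anchored ligand, kept more of its level at late times. It was at 7.26 CPM in parental cells, 17.5 CPM at 6 h, 22.3 CPM at 48 h, 12.3 CPM at 2 months and 17.2 CPM at 4 months. All lung libraries were above the parental one, and 6 h and 4 months overlapped. Between 48 h and 2 months it was 1.82-fold (1.67 to 1.99) lower, inside 2-fold, and at 4 months it was 2.29-fold (2.01 to 2.63) above parental signature-positive cells.

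Among the checkpoint ligands, CD274 was almost absent outside the early lung libraries. The gene (9:5450503-5470566, plus strand) had 0.327 CPM (0.254 to 0.415) in parental cells, 3.81 CPM (3.17 to 4.54) at 6 h, 3.51 CPM (2.99 to 4.09) at 48 h, 0.0989 CPM (0.0427 to 0.195) at 2 months and 0.287 CPM (0.201 to 0.397) at 4 months. These rest on 67, 124, 164, 8 and 36 UMIs. The 6 h and 48 h intervals overlapped each other and were far above those of the other 3 libraries. The 6 h level was 11.7-fold (8.59 to 15.9) that of the parental library and 4.15-fold (2.75 to 6.46) that of parental signature-positive cells, and from 48 h to 2 months it was 35.4-fold (17.6 to 83.5) lower. The 2 month level was no higher than that of a receptor which carcinoma cells should lack. It could thus not be told from background counts, and the ratio to it and its interval cover counting error alone. With so few molecules a cell, these ratios describe rare UMIs spread over many cells.

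Without added CPM, CD274 had the largest ratio of the set at 6 h against all parental cells. With 1 CPM added its log2 ratio of 1.86 was below those of CD55 (3.16) and CD59 (2.075). Its promoter is shown for the ratio without added CPM and because it holds a motif found in no other member. It is the 250 bases before the RefSeq start (GRCh38.p14, chr9:5450292-5450541, plus strand, 5′ to 3′), with 2 overlapping matches of the interferon-stimulated response element core GAAANNGAA, here on the other strand as TTCNNTTTC, in capitals.
CD274: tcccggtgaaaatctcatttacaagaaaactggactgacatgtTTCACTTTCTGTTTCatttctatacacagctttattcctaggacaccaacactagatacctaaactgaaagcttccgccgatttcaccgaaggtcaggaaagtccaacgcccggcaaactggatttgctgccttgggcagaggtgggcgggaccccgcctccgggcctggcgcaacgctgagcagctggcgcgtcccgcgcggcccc
The matches start 207 and 201 bases before the start. The core, searched on both strands, is in 6.88% of all promoter entries and in no entry of the other 9 genes. Of the other motifs searched, AP-1 (TGANTCA) is in 6.57% of all entries and in 1 of the 4 entries of CD59, the GAANNTTC core is also in 1 other entry of CD59, and the cyclic AMP response element (TGACGTCA, 1.65% of all entries) is in none of the 15 entries of the 10 genes.

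CD47 is the gene for the main signal against phagocytosis. CD47 (3:108043091-108091862, minus strand) was at 36.4 CPM in parental cells, 124 CPM at 6 h, 116 CPM at 48 h, 58.0 CPM at 2 months and 81.9 CPM at 4 months. No 2 libraries overlapped, and all lung libraries were above the parental one. It was 2.24-fold (2.12 to 2.37) higher at 6 h than in parental signature-positive cells and 1.99-fold (1.91 to 2.07) lower at 2 months than at 48 h, just inside 2-fold. At 4 months it was 1.48-fold (1.41 to 1.56) above parental signature-positive cells.

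PVR (19:44643798-44666162, plus strand) gave 10.4 CPM in the parental library, 35.3 CPM at 6 h, 36.4 CPM at 48 h, 11.7 CPM at 2 months and 10.3 CPM at 4 months. The 4 month and parental intervals overlapped, and 2 months (10.95 to 12.45) lay just above the parental library (9.984 to 10.87). The 6 h level was 2.26-fold (2.03 to 2.51) that of parental signature-positive cells, and the 4 month level was 0.658 of it (0.593 to 0.731). Of the 90-base windows at its 3′ end, 21.1% are shared with an overlapping gene model of GENCODE 44 that is not among the genes of the files.

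CD276 (B7-H3) stood apart in time. CD276 (15:73683966-73714514, plus strand) was at 29.6 CPM in parental cells, 33.6 CPM at 6 h, 60.1 CPM at 48 h, 23.9 CPM at 2 months and 29.4 CPM at 4 months. The 48 h library alone stood out, 1.79-fold (1.67 to 1.92) above 6 h, and the parental and 4 month libraries overlapped. It was the 1 gene of the 9 tested that was inside 2-fold at 6 h against parental cells, and it was 2.51-fold (2.37 to 2.66) lower at 2 months than at 48 h.

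**Figure D2:**
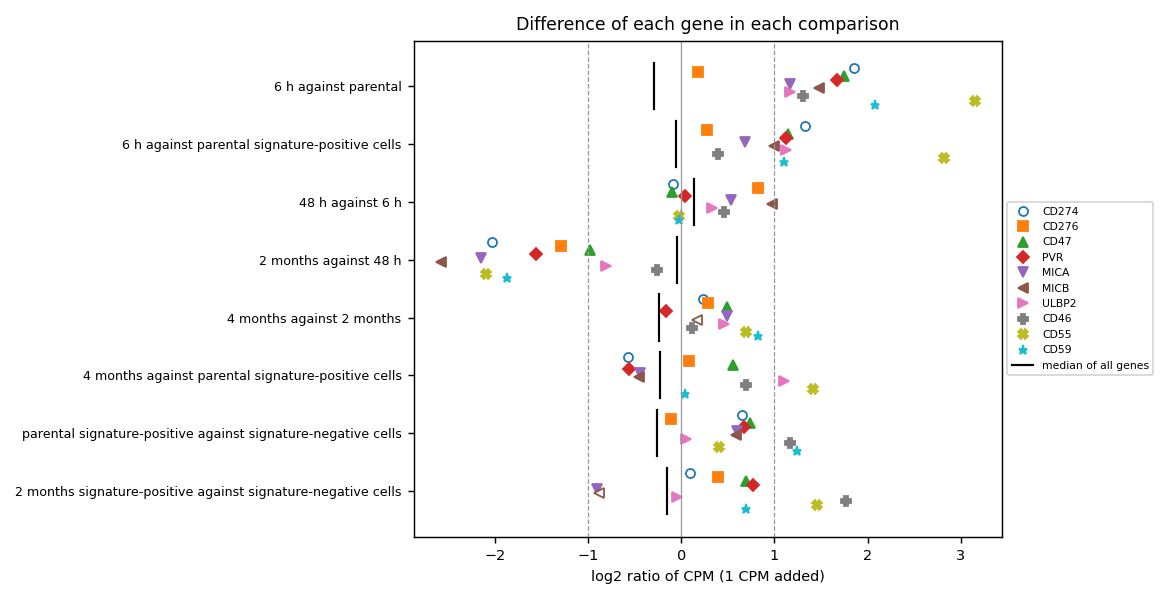
Log2 ratio of CPM, with 1 CPM added, for each gene in 8 comparisons; filled symbols are genes that reached 5 CPM in one of the compared groups, open symbols are genes below, the dashed lines are at 2-fold and the black bar is the median of all genes tested. At 6 h against parental cells 8 of 9 tested genes lie right of the 2-fold line, and at 2 months against 48 h 6 of 9 lie left of it.

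At 4 months 2 of 9 genes, ULBP2 and CD55, were at least 2-fold above parental signature-positive cells and none was 2-fold below, beside 8.18% of all genes higher and 14.4% lower. CD274, below the limit for testing, was 3.20-fold (1.89 to 5.36) lower there. The median log2 ratio over the 9 genes was 0.09, against -0.23 over all genes.

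Within the parental library 8 of the 9 tested genes had a higher level in signature-positive than in signature-negative cells, with a ratio above 1. The median log2 ratio was 0.60 over the 9 genes and -0.26 over all genes, and the share of all genes with a ratio above 1 was not counted. CD46 and CD59 were at least 2-fold higher, 2 of the 9 tested genes, and none was 2-fold lower, beside 12.9% of all genes higher and 18.8% lower. CD46 was at 42.4 CPM in signature-positive and 18.4 CPM in signature-negative cells, a 2.30-fold (2.16 to 2.46) difference. CD47, MICB, PVR and MICA followed with ratios of 1.68, 1.67, 1.66 and 1.54, CD55 had 1.34 (1.24 to 1.43) and ULBP2 1.04 (0.900 to 1.19), whose interval held 1. CD274, below the limit for testing, had 4.18 (2.49 to 6.97). The median UMIs per cell were 24831 and 22772 in the 2 classes, and since the class needs a UMI in each signature group, deeper cells have more chance to enter it.

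At 2 months MICA, MICB and CD276 stood on the other side of 1 in the same contrast, with counting intervals clear of 1 in both libraries. CD46 and CD55 were at least 2-fold higher in signature-positive cells, 2 of 8 tested genes, and none was 2-fold lower, beside 18.8% of all genes higher and 21.9% lower. CD46 reached 79.2 CPM in signature-positive cells against 22.6 CPM in signature-negative ones, a 3.51-fold (3.20 to 3.86) difference, and CD55 62.6 CPM against 22.2 CPM. MICA went the other way, with 11.5 CPM in signature-positive and 22.5 CPM in signature-negative cells, a ratio of 0.512 (0.455 to 0.576), whereas its ratio in the parental library was 1.54 (1.43 to 1.66). MICB had 2.20 CPM against 4.92 CPM, a ratio of 0.447 (0.343 to 0.583), after 1.67 (1.39 to 1.99) in the parental library. It stayed below 5 CPM in both classes at 2 months, so MICB stands outside the 8 tested genes. CD276 had a ratio of 1.33 (1.195 to 1.49) after 0.921 (0.856 to 0.989) in the parental library, where its direction turned with median-ratio scaling. ULBP2 had a ratio of 0.969 (0.842 to 1.12) at 2 months, and its interval held 1 in both libraries. These are values of 2 libraries, and the difference between them was not tested.

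The 606 signature-negative cells at 2 months resembled signature-negative cells in culture. None of the 8 tested genes was past 2-fold between these classes, and over all genes 0.601% were higher and 2.05% lower. CD55 had a ratio of 0.9499 (0.863 to 1.04), CD59 of 0.942 (0.888 to 0.998) and CD46 of 1.23 (1.11 to 1.35). ULBP2 was furthest apart, 1.74-fold (1.52 to 1.98) higher at 2 months. The squamous and epithelial markers summed to 164 CPM in these cells and 84.2 CPM in parental signature-negative cells, and the keratins were higher at 2 months, KRT17 at 47.7 CPM against 0.231 CPM and KRT6A at 31.3 CPM against 0.0462 CPM. In signature-positive cells of the same 2 month library KRT17 was at 5937 CPM, and the part of RNA from those cells in these values was not tested. Their median of 37139.5 UMIs was above the 19415.5 of signature-positive cells of the same library.

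Shares of cells were compared after each cell was thinned to 3000 UMIs, which left out 157, 123, 76, 88 and 281 cells of the libraries in order of time. The share with a UMI of CD55 was then 6.97%, 38.1%, 41.3%, 14.9% and 21.6%, in the same order. Without thinning the same shares were 38.9%, 69.7%, 85.0%, 55.2% and 69.7%, equal at 6 h and 4 months, whose median depths were 12979 and 27559 UMIs. CD59 was found in 19.6%, 53.8%, 54.9%, 20.9% and 34.3% of thinned cells in that order. For both genes the early libraries were apart from the late ones at equal depth.

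CD46 was found in 6.73%, 15.1%, 21.8%, 20.3% and 19.9% of thinned cells in order of time, with overlapping intervals from 48 h on. CD47 was found in 9.74%, 31.0%, 24.5%, 16.1% and 20.7% in the same order. MICA was found in 5.71%, 13.5%, 16.8%, 3.49% and 5.52%, and MICB in 1.05%, 3.65%, 6.34%, 0.526% and 0.830%. For these 3 genes the 2 early libraries had the highest shares.

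PVR was found in at most 11.9% of thinned cells (48 h), ULBP2 in at most 6.11% (6 h) and CD276 in at most 15.8% (48 h). CD274 was found in 5 of 8902 parental cells, in 19 of 1834 cells (1.04%) after 6 h and in 10 of 1073 (0.932%) after 48 h. The late libraries had 2 of 3234 and 2 of 4218 cells with it. The 10 receptors of immune cells, such as PDCD1, TIGIT and KLRK1, which carcinoma cells should lack, served as a background for rare counts. They were found in at most 0.0899%, 0.164%, 0.0932%, 0.0309% and 0.0474% of cells in order of time after the same thinning. The CD274 shares at 6 h and 48 h were above that level. Those of 0.0562% in parental cells and 0.0474% at 4 months were not, and could not be told from that background at this depth. Over all UMIs, however, CD274 at 0.327 CPM and 0.287 CPM lay above the highest receptor of these libraries, KLRK1 at 0.220 CPM and CD96 at 0.112 CPM. The receptors cannot show whether CD274 counts are stray RNA of other tumor cells, and this was not tested. At 2 months CD274 rested on only 2 thinned cells, and over all UMIs its level equalled that of the receptor CD226, 0.0989 CPM.

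**Figure D3:**
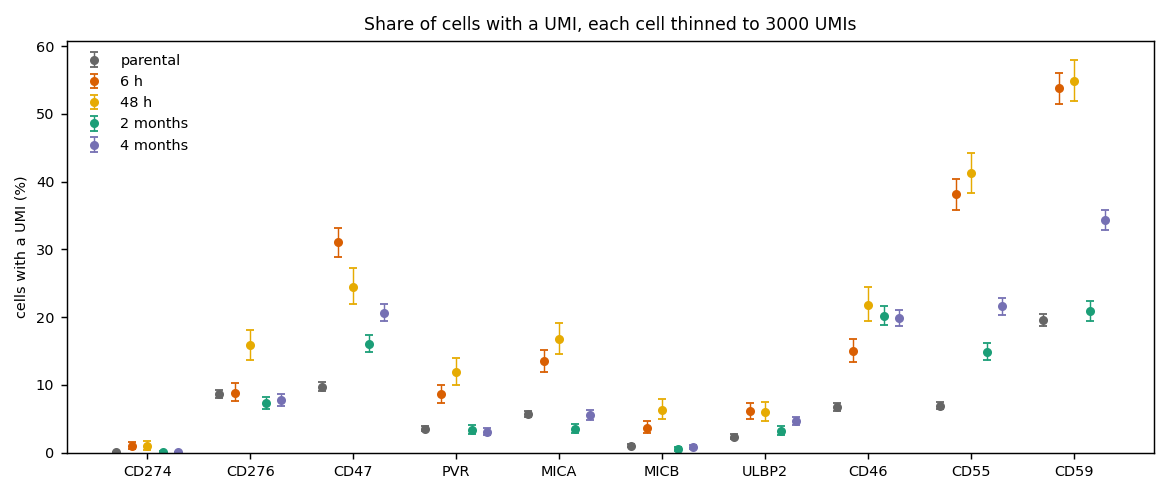
Share of cells, in percent, with at least 1 UMI of each gene after every cell was thinned to 3000 UMIs, with exact 95% Clopper-Pearson intervals, for the 5 libraries. CD59 was found in 53.8% of cells at 6 h and 54.9% at 48 h, and CD46 in 19.9% to 21.8% of cells from 48 h on.

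How many of the 10 genes one cell showed was counted after thinning to 10000 UMIs, a depth that 8134, 1178, 984, 2813 and 3879 cells reached in order of time. The median was 2 genes in parental cells, 4 genes in both early lung libraries, 2 genes at 2 months and 3 genes at 4 months. All of CD46, CD55 and CD59 were found together in 2.51% (2.18 to 2.87) of parental cells, and in the lung libraries in 28.2% (25.6 to 30.9), 37.4% (34.4 to 40.5), 10.5% (9.41 to 11.7) and 16.01% (14.9 to 17.2) of cells in order of time. Cells with none of these 3 made up 33.9%, 2.04%, 2.44%, 17.8% and 9.51% in order of time, so they were rare in the early lung libraries. At 2 months the triple share was 12.8% (11.4 to 14.2) in signature-positive and 1.27% (0.512 to 2.60) in signature-negative cells. At least 1 NKG2D ligand was found in 26.3%, 48.8%, 61.2%, 23.6% and 31.4% of cells in order of time.

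The products of the 3 single shares were 1.94%, 27.1%, 35.4%, 8.54% and 15.5% in order of time. They lay within the intervals of the triple shares at 6 h, 48 h and 4 months, and below them in the parental and 2 month libraries. Over cells at this depth, Spearman correlations between pairs of genes with a mean of at least 0.1 UMI a cell ran from -0.07 to 0.14 over all libraries, with medians of 0.02, 0.02, 0.05, 0.01 and 0.01 in the 5 libraries, and in sparse counts such weak values are no finding. CD55 had the highest variance over cells relative to its mean at 6 h and 48 h, 3.55 and 3.71 times, where counting alone gives near 1. The value was 1.13 in parental cells, 1.82 at 2 months and 2.83 at 4 months. CD59 stood at 1.99 and 1.96 at 6 h and 48 h and at 3.06 at 4 months, while CD46 stayed between 1.11 and 1.24 in all 5 libraries. Such a ratio can rise with the mean. That of CD55 was 2.32 UMIs a cell at 6 h, 0.244 in parental cells and 0.984 at 4 months. The ratios thus do not show that CD55 was more unevenly spread early than late.

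**Figure D4:**
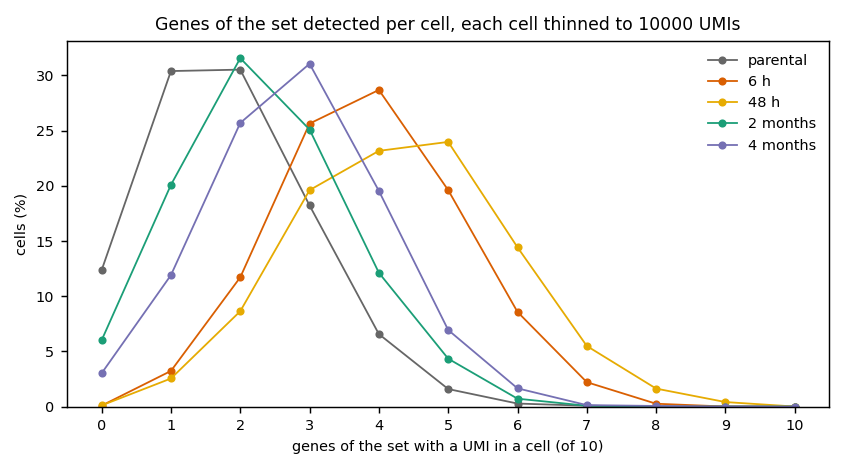
Percent of cells, on the vertical axis, by how many of the 10 genes had at least 1 UMI after thinning to 10000 UMIs, on the horizontal axis, for the 5 libraries. The most frequent number was 4 genes at 6 h (28.7% of cells) and 5 genes at 48 h (24.0%), against 2 genes in parental cells (30.5%).

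Other ligands of the same kinds were taken from lists. Of 20 further checkpoint and phagocytosis ligands, 6 reached 5 CPM in the 6 h or parental library. Of these 4 were at least 2-fold higher at 6 h and none lower, beside 17.2% of all genes higher and 27.8% lower. HLA-E, a ligand of the inhibitory NK receptor NKG2A, was at 30.1 CPM in parental cells, 232 CPM at 6 h, 338 CPM at 48 h, 54.1 CPM at 2 months and 123 CPM at 4 months. CD24, a ligand of Siglec-10 on macrophages, was at 48.6, 352, 363, 114 and 233 CPM in the same order, and VSIR, which encodes VISTA, at 2.98, 36.4, 34.3, 8.77 and 17.7 CPM. HLA-E, CD24 and VSIR were thus highest in the early lung libraries. CD24 was already at 212 CPM in parental signature-positive cells, against 18.9 CPM in signature-negative ones. Against parental signature-positive cells, 3 of 6 tested ligands were at least 2-fold higher at 6 h and none lower. HLA-E and VSIR were among the 3, and CD24 was not. Over all genes 10.6% were higher and 12.3% lower in that comparison. At 2 months against 48 h, 6 of 9 tested ligands of this list were at least 2-fold lower and 2 higher.

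Of 6 other NKG2D and NK ligands, 1, NCR3LG1, reached 5 CPM at 6 h or in parental cells, none at 48 h or 6 h, and 1, RAET1L, at 2 months or 48 h. NCR3LG1 was at least 2-fold lower at 6 h, at 0.40 CPM against 5.21 CPM in parental cells. RAET1L, a close relative of ULBP2 whose molecules the counting may not wholly separate from those of other relatives, had 0.0146 CPM in parental cells, 2.37 CPM at 6 h, 2.29 CPM at 48 h, 25.8 CPM at 2 months and 22.6 CPM at 4 months. Its high libraries were thus the late ones, and at 2 months it was at 35.3 CPM in signature-positive and 0.0919 CPM in signature-negative cells.

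Of 8 further complement regulators only CLU, which encodes clusterin, a soluble inhibitor of the attack complex, was tested. CLU was at 37.6 CPM in parental cells, 199 CPM at 6 h, 128 CPM at 48 h, 203 CPM at 2 months and 146 CPM at 4 months. At 2 months it was at 265 CPM in signature-positive and 34.2 CPM in signature-negative cells. None of the 8 complement components, such as C3 and C1R, reached 5 CPM in a comparison of libraries or of classes. C4A and C4B are near-identical copies that the counting may not separate.

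Of 7 genes that handle these ligands, such as CMTM6, which stabilizes PD-L1, and ADAM10 and ADAM17, which shed surface proteins, 6 or 7 were tested in each comparison and none was 2-fold higher in any of them. Over all genes 0.601% to 18.8% were 2-fold higher, depending on the comparison, so none of 6 or 7 cannot be called unusual. QPCTL, the enzyme that modifies CD47 for binding, was the 1 gene 2-fold lower at 6 h against all parental cells, at 1.41 CPM against 5.29 CPM. STUB1 was the 1 gene 2-fold lower at 6 h and at 4 months against parental signature-positive cells, at 140 CPM and 129 CPM against 287 CPM. Over all genes 27.8% were lower at 6 h against all parental cells. Against parental signature-positive cells 12.3% were lower at 6 h and 14.4% at 4 months. Of 9 genes of interferon-gamma signalling, 6 were tested at 6 h against parental cells, and SOCS1 and IRF1 were at least 2-fold higher and none lower. Over all genes 17.2% were higher and 27.8% lower there. IRF1 was at 8.78 CPM in parental cells, 39.3 CPM at 6 h, 121 CPM at 48 h, 11.2 CPM at 2 months and 25.4 CPM at 4 months. SOCS1, a feedback inhibitor, was at 2.57, 29.4, 29.7, 3.54 and 8.42 CPM, so both were highest in the 2 early libraries. From 6 h to 48 h IRF1 went from 39.3 to 121 CPM while CD274 went from 3.81 to 3.51 CPM, and a link between them was not tested.

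The receptors on the other side of these contacts belong to mouse cells, which counts on the human genome do not cover. The 10 human receptor genes summed to 0.469 CPM in parental cells, 0.492 CPM at 6 h, 0.449 CPM at 48 h, 0.359 CPM at 2 months and 0.247 CPM at 4 months. The 8 leukocyte markers summed to 7.85, 34.4, 13.5, 3.24 and 5.98 CPM in the same order, with LYZ the highest at 6 h at 17.5 CPM. Without the signature-negative cells at 6 h and 48 h, an alternative added after seeing the data, 8, 0 and 6 genes were past 2-fold at 6 h against parental cells, 48 h against 6 h and 2 months against 48 h, the same counts as with them, and 6 in place of 5 at 6 h against parental signature-positive cells. Of all genes 45.1%, 4.56%, 25.3% and 23.0% were then past 2-fold in either direction, in that order. The 5 endothelial markers summed to at most 0.729 CPM, the 7 fibroblast markers to at most 13.6 CPM (48 h), the 5 alveolar markers to at most 1.75 CPM and the 2 erythroid markers to at most 0.584 CPM in a library.

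The genes whose profile was most like each member were sought among 5179 genes with a mean of at least 20 CPM, over 6 groups of cells: both parental classes and the 4 lung libraries. The measure was the root mean square difference of the centred log2 CPM (1 CPM added). CD55 was nearest to DNAJB2 at 0.14 and to HLA-E at 0.21, CD59 to TES at 0.11 and TRIP10 at 0.16, and CD46 to PATJ at 0.12 and RNMT at 0.13. CD47 was nearest to TSPAN14 at 0.13 and MAPKAPK2 at 0.14, and PVR to PAFAH1B1 at 0.11 and SLC3A2 at 0.14. MICA was nearest to ASL at 0.12 and ANO6 at 0.14, MICB to CREB3 at 0.21 and TNIP2 at 0.23, ULBP2 to IVNS1ABP at 0.09 and TLE1 at 0.11, and CD274 to SKIL at 0.14 and TNIP2 at 0.16.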

How the data were processed

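Single-cell 3′ counts of 5 KYSE30-Luc-GFP libraries, 1 for each timepoint, were used. The authors deposited UMI counts by gene and called barcode, neither normalized nor filtered. Per the submitters' processing notes Cell Ranger 3 and the GRCh38 build were used, and the file header names version 3.0.2. The filter of the study was applied: 200 to 8000 genes, no fewer than 1000 UMIs and a mitochondrial share up to 15%. Doublets were kept.

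Levels are UMIs summed over cells per 1000000. Called past 2-fold means a log2 ratio with 1 CPM added of at least 1 or at most -1, among genes reaching 5 CPM in one of the compared groups. A gene that reached 5 CPM in 1 of the compared groups alone could be called in 1 direction only. This held for MICB, VSIR and SOCS1 at 6 h against parental cells, and for such genes among all genes tested. Cells are not replicates, so no test was run. A count of 0 allows up to 3 counts. Thinning drew UMIs without replacement with a fixed seed. Named are all 10 members, list genes past 2-fold at 20 CPM or more with the largest ratios (up to 4 a list), and the 2 nearest genes of each member. Genes named as background or as examples of a list, such as RHOD or CMTM6, fall outside this rule. So do QPCTL, VTCN1, LGALS9, NCR3LG1, KRT17, KRT6A and single immune receptors, chosen after their values were seen.

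The members, lists, motifs and tests were chosen with earlier results of these data known. Coordinates come from GENCODE 44 by gene ID, and promoters from RefSeq (GRCh38.p14), where all 10 members matched. Python 3.11.15, numpy 2.4.6, pandas, scipy 1.17.1 and matplotlib 3.10.9 were used, and the computations were tested on simulated data. Alternatives were other cell filters, added CPM, minimum CPM, scalings, weights of cells, signature classes and depths. Some single genes are left out of the text.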

Additional observations from a re-analysis of the deposited data

Results flagged for a closer look

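The ratio of signature-positive to signature-negative cells lay on opposite sides of 1 in the parental library and at 2 months for 3 of the 10 genes, with both counting intervals clear of 1. The share of all genes that do the same was not counted, so 3 of 10 cannot be called unusual. MICA had a ratio of 1.54 (1.43 to 1.66) in the parental library and 0.512 (0.455 to 0.576) at 2 months. MICB had 1.67 (1.39 to 1.99) and 0.447 (0.343 to 0.583). CD276 had 0.921 (0.856 to 0.989) and 1.33 (1.195 to 1.49), and its parental direction turned with median-ratio scaling, to a log2 ratio of 0.08 from -0.12. Each library is a single sample, so the difference between the libraries was not tested.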

How the results depend on the processing

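No paired analysis was possible because each timepoint has 1 library with the same replicate number. None of the genes past 2-fold in a comparison changed direction under any alternative run. At 6 h against all parental cells 6 genes were past 2-fold with 5 CPM added, in place of 8, as MICB and ULBP2 fell inside. Of all genes 33.9% were then past 2-fold, in place of 45.1%. The count was also 6 with a minimum of 20 CPM (45.3%), and 9 when scaled without mitochondrial and ribosomal protein genes (48.0%). With 5 CPM added, 3 genes were past 2-fold at 6 h against parental signature-positive cells, in place of 5, and 1 at 4 months against the same cells, in place of 2. Of all genes 14.2% and 14.6% were then past 2-fold in either direction, in place of 22.9% and 22.6%. The count at 4 months against these cells was also 1 with a minimum of 20 CPM, beside 23.3% of all genes. Median-ratio scaling gave 1 gene past 2-fold at 4 months against 2 months, in place of 0. The share of all genes was 10.95% there, in place of 12.4%. The shift of all genes between these scalings was -0.25 on the log2 scale at 4 months against 2 months and -0.26 at 6 h against parental cells. With equal weight of cells, 4 genes were past 2-fold between the classes at 2 months in place of 2, the added ones being MICA and MICB with log2 ratios of -1.12 and -1.001. Of all genes 41.5% were past 2-fold under that setting, in place of 40.7%. The highest median of genes detected per cell was 3 at 5000 UMIs, 4 at 10000 and 6 at 20000. Of 700 ratios of single genes under alternatives 541 stayed within their counting interval, and of 200 shares under other depths or a minimum of 2 UMIs only 3 did, since a share follows the depth. The alternative without signature-negative cells at 6 h and 48 h, and the comparison of signature-negative cells of both libraries, were chosen after seeing the data. Levels under 5 CPM, as for CD274, rest on few molecules, and the intervals say nothing of the spread between mice.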
